A study of Mus musculus with 12 samples.

Results

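Antigen-specific CD8 T cells of mice with a CD8-specific knockout (KO) of TrIP were compared between 2 sites of the same disease, the MC38 tumor and the tumor-draining lymph node (TDLN). The comparison takes in 6 of the 12 libraries of the series, the 3 labelled KO tumor and the 3 labelled KO TDLN, and every gene in the table, with libraries treated as unpaired. MC38 is a mouse colon carcinoma line, and both KO groups came from mice on day 10 after its injection. Cells were sorted as CD8+ and positive for a tetramer of Rpl18, an MHC multimer that binds T cells recognising a peptide of that ribosomal protein. The 6 wild-type (WT) libraries, 3 from tumor and 3 from TDLN of the same day and sort, entered the fit. They therefore share in the filter and in the estimate of spread behind every SE and p-value below. Their own values are given only beside those of the KO. The Cre or allele behind the knockout, the age of the mice and any pooling of animals were not given in the labels or file headers. Nothing in the labels says which libraries came from the same mouse, so p-values measure the spread between these libraries.

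TrIP, the product of Pik3ip1, is a transmembrane protein that restrains phosphoinositide 3-kinase (PI3K), the lipid kinase that carries signals from the T-cell receptor and costimulatory receptors to AKT. A CD8 T cell is primed in the draining node, divides there, and then enters the tumor, where it can meet its antigen again. Meeting antigen switches on early-response genes such as the NR4A, EGR and AP-1 factors within a short time, followed by cytokines, chemokines and the feedback genes that dampen the signal. Long stimulation in tumors is known to raise inhibitory receptors, while stem-like and memory cells keep Tcf7 and Id3.

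The 6 KO libraries held an estimated 18265000 to 30865000 reads in genes, and their normalized column totals lay between 23880004 and 26115867. Normalized counts are the deposited unit, and trios of values are given in the order of replicates 1, 2 and 3. On the principal components of the 6 libraries, the first axis held 73.1% of the variance and separated tumor from TDLN, and the second held 10.5% and set tumor library 3 apart. The female-specific transcript Xist was at 2485 in tumor library 3 and 3845 in TDLN library 3 and at most 2.54 in the other KO libraries. Tumor library 3 also held Y-linked transcripts, which summed to 2477 there and to 0 in TDLN library 3. Tumor library 2 stood apart in hemoglobin, with Hbb-bs at 3289 against 52.0 and 29.1 in tumor libraries 1 and 3. Each result was therefore computed again without each library, and, as a choice made after the data were seen, without both replicate 3 libraries.

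Pik3ip1 itself was lower in tumor. It had 173, 95.2 and 55.5 normalized counts in the tumor libraries and 854, 1009 and 1573 in the TDLN libraries. All 3 tumor values lay well under all 3 TDLN values, a fall of 3.19 ± 0.347 (SE) on the log2 scale and 9.13-fold (limma, adjusted p = 4.28e-05). The WT libraries had 179, 119 and 138 in tumor and 607, 1095 and 834 in TDLN, so KO and WT values overlapped within each tissue. Which part of the gene the knockout removes is not given in the sources used here, and counts over the whole gene therefore do not check the label.

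Across the transcriptome, tumor and TDLN cells of the KO differed at a large share of genes. Of 16065 genes tested, 4919 passed an adjusted p of 0.05 in limma (30.6%). In tumor 2902 genes were higher (18.1%) and 2017 were lower (12.6%), and these shares are the background for every gene list below. The median difference over all genes was 0.05 on the log2 scale, tumor minus TDLN. Genes higher in tumor moved further: 1140 rose more than 4-fold (7.1% of genes tested) and 188 more than 16-fold (1.17%), while 190 fell more than 4-fold (1.18%) and 4 more than 16-fold (0.0249%). The values of the 3 tumor and 3 TDLN libraries did not overlap for 4843 of the 4919 genes, but they also did not overlap for 50.2% of all genes tested. Leaving out TDLN library 1 lowered the total to 3056, and fitting only the KO libraries raised it to 5722. The count of lower genes fell to 1030 without TDLN library 1, 1205 without TDLN library 2, 1138 without tumor library 1 and 1288 without tumor library 2. The excess of higher over lower calls depended on scaling: the split was 2644 to 2403 with columns set to a common total and 2396 to 2870 with quantile normalization, which also moved the median of all genes to -0.12.

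**Figure D1:**
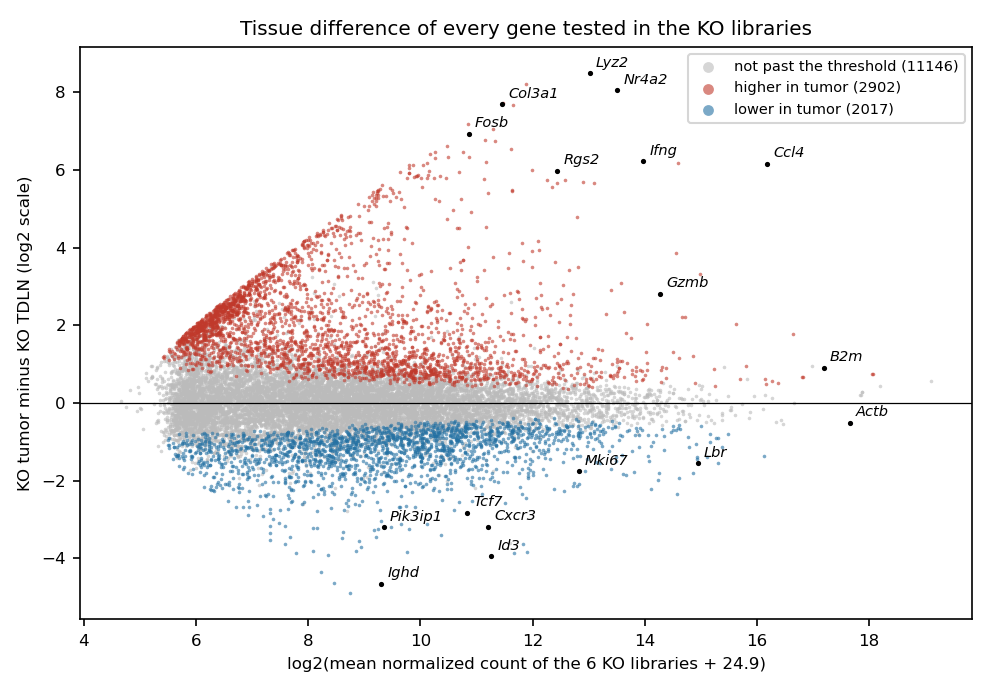
Each point is 1 of the 16065 genes tested, with the log2 of its mean normalized count over the 6 KO libraries (plus 24.9) on the x axis and the tumor minus TDLN difference on the log2 scale on the y axis. The 2902 genes higher in tumor (red) reach further from 0 than the 2017 lower genes (blue); for genes at or near 0 in one tissue the difference depends on the added 24.9.

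Identity markers of CD8 T cells were abundant in both tissues. The 16 markers of the list, among them the CD3 chains, both CD8 chains and the receptor constant segments, together took 0.623%, 0.61% and 0.603% of the column total in tumor and 0.727%, 0.629% and 0.79% in TDLN. Cd8a, the alpha chain of the coreceptor, had 22178, 18065 and 18952 normalized counts in tumor and 16489, 15354 and 18560 in TDLN, and its values overlapped between the tissues. Of the 16 markers, 3 rose (18.8%) and 4 fell (25%), against 18.1% and 12.6% of all genes tested. Leaving out TDLN library 1 or tumor library 1 left 1 and 2 of these calls. Without TDLN library 2 the first count was also 1, and without tumor library 2 the second was also 2. Cd8b1, the beta chain, fell from 25743, 23767 and 30992 in TDLN to 13976, 14503 and 16079 in tumor (log2 difference -0.85 ± 0.186, adjusted p = 0.00511). Cd4 was under the filter in the KO libraries, at 6.72 to 14.6 normalized counts, and Ncr1, a defining receptor of NK cells, was listed at 0 in all 6.

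Transcripts of other cells differed between the tissues. All 21 markers of macrophages and monocytes rose in tumor, with a median log2 difference of 4.64 (5.80 with genes listed at 0 in TDLN placed at a floor of 3 reads per library). They took 0.161%, 0.324% and 0.137% of the tumor column totals and 0.00952%, 0.0108% and 0.0131% of the TDLN totals, and 7 of the 21 were listed at 0 in every TDLN library. Such genes passed the filter through other libraries and could not fall, so the direction of these 7 was fixed in advance. The same holds in every list for tested members at 0 in all libraries of 1 tissue. Lyz2, the lysozyme of myeloid cells, had 9640, 30096 and 9922 normalized counts in tumor and 13.9, 21.9 and 8.64 in TDLN (log2 difference 8.50 ± 0.605, adjusted p = 1.6e-06). C1qb, a chain of complement C1q made by macrophages, had 3195, 4696 and 3080 in tumor and was listed at 0 in all TDLN libraries (adjusted p = 4.79e-09). Fibroblast and matrix genes rose for 8 of 13, and their summed share was 0.114%, 0.0894% and 0.156% in tumor and 0.0312%, 0.0309% and 0.04% in TDLN. Of the 13, 7 were listed at 0 in every TDLN library and could not fall. Most of the TDLN share is Thy1, a T-cell gene on that list with 7424, 7499 and 9792 normalized counts there. Col3a1, a fibrillar collagen, had 5833, 2881 and 8059 in tumor and was listed at 0 in TDLN (adjusted p = 1.09e-06).

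B-cell transcripts moved the other way. Of 13 B-cell markers tested, 12 fell in tumor, and the list took 0.0418%, 0.0718% and 0.0822% of the TDLN totals and 0.00581%, 0.00639% and 0.00579% of the tumor totals. Of the 13, 2 were listed at 0 in every tumor library and could not rise. Ighd, the heavy chain of IgD, had 22.8, 7.61 and 36.0 normalized counts in tumor and 726, 1099 and 1759 in TDLN (log2 difference -4.65 ± 0.439, adjusted p = 1.41e-05). Cd79b, a signaling chain of the B-cell receptor, fell by 3.70 ± 0.302 on the log2 scale (adjusted p = 4.58e-06). Hemoglobin was high in tumor library 2 alone, and endothelial markers were highest in tumor library 3 and lowest of the tumor libraries in library 2. No endothelial marker of 6 tested passed the threshold with all libraries, and 4 did without tumor library 2; of 5 erythroid and platelet genes 1 passed, and 5 did without tumor library 3. Of the epithelial keratins, Krt8 was at 8.32 in tumor library 3 and 0 in the other KO libraries, and Krt18 was listed at 0 in all 3 tumor libraries. Some genes below are also expressed by macrophages, fibroblasts or B cells, and the part of these cells in their values was not tested. In such bulk libraries fewer cells of a type and less RNA per cell cannot be told apart.

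**Figure D2:**
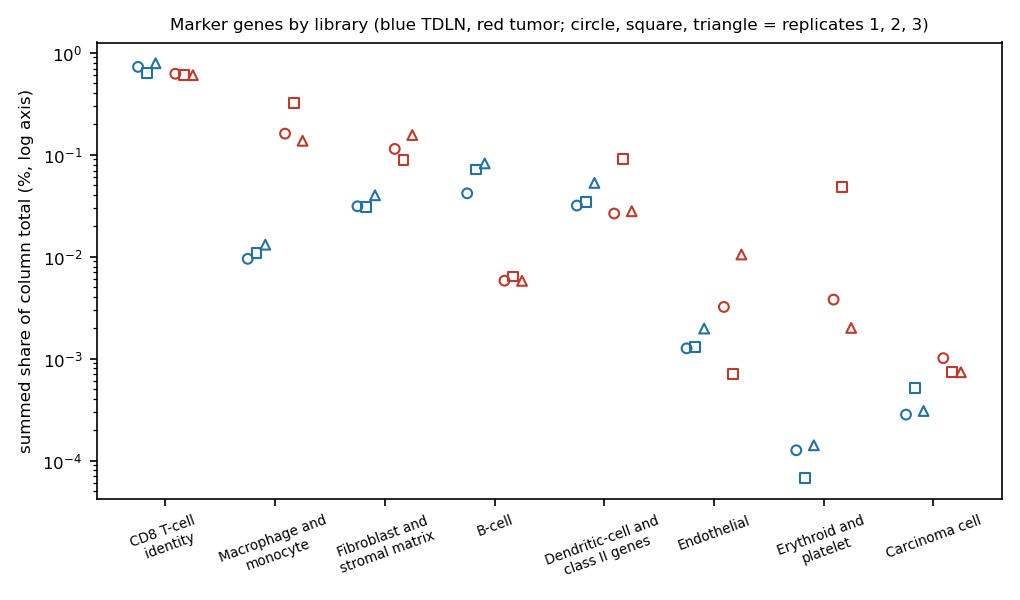
Summed share of the column total taken by 8 marker lists (y axis, percent, log axis), for the 3 TDLN libraries (blue) and the 3 tumor libraries (red) of the KO. CD8 identity genes take 0.603% to 0.623% in tumor and 0.629% to 0.79% in TDLN, macrophage genes rise from about 0.01% in TDLN to between 0.137% and 0.324% in tumor, and B-cell genes fall.

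Early-response transcription factors showed some of the largest rises. Which cells of the tumor libraries carried them was not tested. Of 8 NR4A and EGR genes tested, 6 rose in tumor and none fell, with a median log2 difference of 2.90. Nr4a2, which encodes an NR4A transcription factor, had 32319, 20648 and 16671 normalized counts in tumor and 93.6, 77.8 and 24 in TDLN. Its lowest tumor library was far above its highest TDLN library, and the log2 difference was 8.05 ± 0.355 (adjusted p = 3.69e-08). Nr4a3 had 13162, 13117 and 9778 in tumor and 272, 185 and 154 in TDLN (5.74 ± 0.26, adjusted p = 4.44e-08). Nr4a1, the family member widely used as a reporter of receptor signaling, had 3275, 3758 and 2775 in tumor and 55.7, 47.1 and 84.5 in TDLN (5.25 ± 0.324, adjusted p = 4.7e-07). Tumor library 3 was the lowest tumor library for all 3 of these genes, and no tumor value overlapped a TDLN value. Egr1, a zinc-finger factor of the same response, rose by 4.03 ± 0.368 (adjusted p = 1.11e-05) and Egr3 by 1.77 ± 0.555 (adjusted p = 0.0302), a call lost without any 1 KO library other than tumor library 3. Egr2, a factor linked to unresponsiveness, had 521, 495 and 390 in tumor and 187, 221 and 40.3 in TDLN and did not pass (adjusted p = 0.0525).

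Among AP-1 and CREM factors, 12 of 14 rose, 1 fell and the median was 3.66. Fos, which pairs with Jun proteins to form AP-1, had 4854, 6429 and 3861 normalized counts in tumor and 9.28, 19.7 and 39.4 in TDLN (6.75 ± 0.355, adjusted p = 1.49e-07). Fosb had 4172, 3855 and 2954 in tumor and 0, 6.57 and 8.64 in TDLN (6.94 ± 0.275 on a scale with 24.9 added, adjusted p = 1.75e-08). Both were almost absent from the TDLN libraries. Crem, a cAMP-responsive factor, was more abundant still, with 15453, 17537 and 18381 in tumor and 317, 438 and 214 in TDLN (5.67 ± 0.263, adjusted p = 5.41e-08). Jun rose by 5.28 ± 0.324, Junb by 3.9 ± 0.451 and Fosl2 by 5.74 ± 0.417, each past the threshold. Batf, an AP-1 partner needed by effector CD8 T cells, was the member that fell, from 2839, 2581 and 2072 in TDLN to 916, 652 and 781 in tumor (-1.64 ± 0.285, adjusted p = 0.00122).

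Transcripts of known feedback genes rose alongside. Of 12 MAPK phosphatase and Sprouty genes, which shut down the ERK pathway, 11 rose (median 2.64). Dusp1, a phosphatase of MAP kinases, had 4352, 5707 and 3765 normalized counts in tumor and 86.7, 76.7 and 85.5 in TDLN (5.41 ± 0.258, adjusted p = 6.61e-08). Dusp5, which acts on ERK in the nucleus, rose by 3.24 ± 0.355 and Spry2 by 3.79 ± 0.792. Of 14 NF-kB subunits and feedback genes 12 rose (median 1.98), with none lower. Tnfaip3, the ubiquitin-editing enzyme A20 that restrains NF-kB, had 13318, 10125 and 7243 in tumor and 153, 204 and 202 in TDLN (5.57 ± 0.298, adjusted p = 1.69e-07). The subunit genes moved less, by 2.84 ± 0.486 for Rel, 2.46 ± 0.254 for Nfkb2 and 1.09 ± 0.262 for Rela. Of 10 mRNA decay factors 7 rose (median 1.63). Among them were Zfp36 (2.48 ± 0.37), which binds AU-rich elements of cytokine mRNAs, and Zc3h12a (2.05 ± 0.328), the endonuclease Regnase-1.

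Rgs2, a regulator of G-protein signaling that accelerates the turn-off of G proteins, had 13673, 10033 and 9075 normalized counts in tumor and 160, 134 and 143 in TDLN. It had a small error for its size, 5.99 ± 0.175 on the log2 scale (adjusted p = 8.58e-10). Rgs16 rose by 6.22 ± 0.383 (adjusted p = 4.7e-07) and Rgs1, which limits chemokine-driven movement, by 3.63 ± 0.366 (adjusted p = 2.38e-05). Rgs19, of the same family, fell by 1.07 ± 0.276 (adjusted p = 0.0123), a call lost without both replicate 3 libraries. Of the 17 genes of the RGS and cAMP list, 7 rose (median 0.76), and they include 3 phosphodiesterases that degrade cAMP, Pde4a, Pde4b and Pde4d. Pde4d rose most of them, from 66.5, 18.6 and 10.6 in TDLN to 981, 1676 and 1226 in tumor (4.63 ± 0.367, adjusted p = 3.59e-06).

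**Figure D3:**
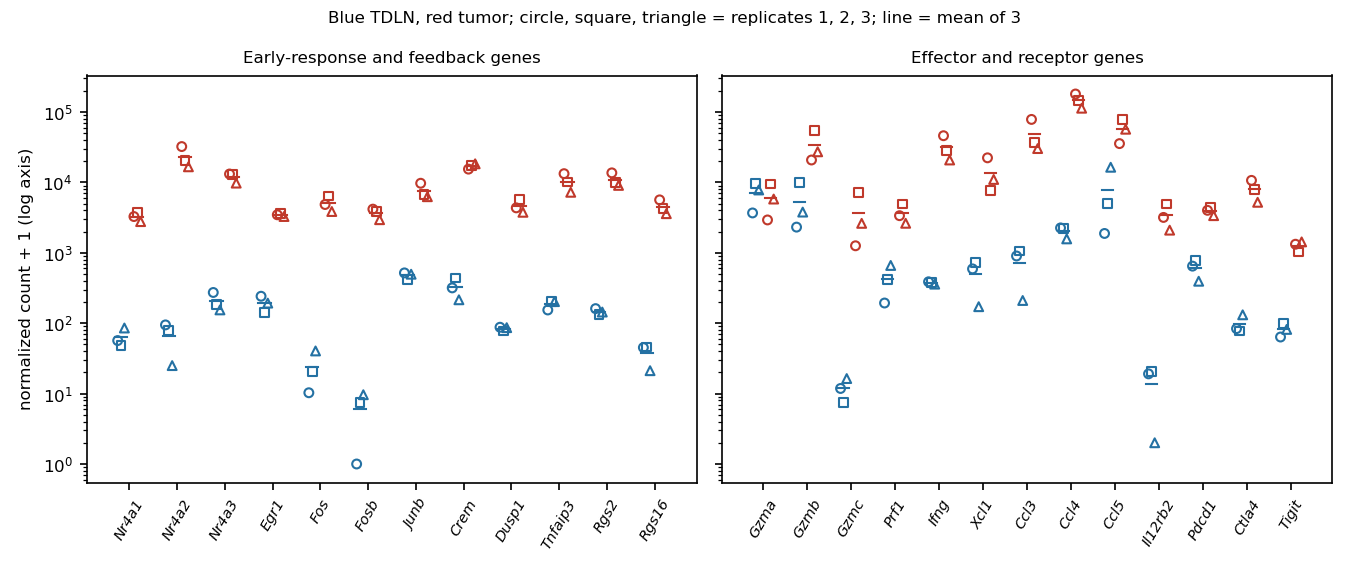
Normalized count plus 1 (y axis, log axis) of early-response and feedback genes (left) and of effector and receptor genes (right) in each KO library; TDLN is blue, tumor is red, and lines are means of 3 libraries. The tumor and TDLN points of every gene on the left stand clear of each other, whereas Gzma on the right overlaps.

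Promoter sequence was read from RefSeq for build GRCm38.p6 to show what lies upstream of genes in these groups. A window ran from 250 bases before to 50 bases after a start site, and 9509 of 16027 tested symbols had at least 1 window (12028 in all). The AP-1 motif TGANTCA, searched on both strands, was in 5.13% of all windows, in 7.32% of windows of genes higher in tumor and in 3.43% of those of lower genes. The cAMP response element TGACGTCA was in 3.08%, 3.32% and 3.66% of the same windows. Of the 38 called early-response and feedback genes with a window, 6% of 50 windows held AP-1 and 6% held the cAMP element, a description over few windows. A match is a description of letters and was not tested as a binding site. The 3 windows below belong to Dusp1, Tnfaip3 and Nfkb2, which rose, and are shown because their upstream part holds such a match, in capitals. Dusp1 holds the cAMP element from 143 bases before its start site. Tnfaip3 and Nfkb2 hold the AP-1 motif from 136 and 210 bases before 1 of their 2 and 3 annotated start sites, and the upstream part of the other windows has no match.
Dusp1, chr17:26508546-26508645, minus strand: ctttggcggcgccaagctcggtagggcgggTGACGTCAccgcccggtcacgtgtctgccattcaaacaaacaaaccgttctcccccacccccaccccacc
Tnfaip3, chr10:19015477-19015576, minus strand: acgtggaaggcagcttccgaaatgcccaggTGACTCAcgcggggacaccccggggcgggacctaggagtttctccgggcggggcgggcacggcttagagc
Nfkb2, chr19:46305455-46305554, plus strand: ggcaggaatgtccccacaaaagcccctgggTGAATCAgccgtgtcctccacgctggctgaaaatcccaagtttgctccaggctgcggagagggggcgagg

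The receptor complex had a median near 0, and the PI3K pathway had a small positive one. Of 22 genes of the T-cell receptor complex and proximal signaling, 6 rose (27.3%) and 3 fell (13.6%, against 12.6% of all genes tested). The median was 0.06 (-0.02 with columns set to a common total). Cblb, a ubiquitin ligase that restrains receptor signaling, rose from 615, 702 and 756 normalized counts in TDLN to 4665, 4626 and 3004 in tumor (2.50 ± 0.305, adjusted p = 0.000105). Ubash3b, a phosphatase that acts on receptor-proximal kinases, rose by 2.44 ± 0.312 (adjusted p = 0.000156) and Cish, a suppressor of receptor signaling in CD8 T cells, by 2.76 ± 0.434 (adjusted p = 0.000657). Zap70, the kinase recruited to the CD3 chains, rose by 1.25 ± 0.266 (adjusted p = 0.0042). The 3 genes that fell, Cd8b1, Lat and Trbc2, dropped by 0.85, 0.76 and 0.69, and of these only Cd8b1 was left when any 1 KO library other than TDLN library 3 was left out. Of 25 PI3K pathway genes 10 rose (40%, against 18.1% of all genes tested), 1 fell, and the median was 0.26, with 20 of the 25 above 0. Pik3ip1 was the gene that fell. Pik3ap1, an adaptor that recruits PI3K, had 1116, 1642 and 796 in tumor and 105, 300 and 176 in TDLN (2.51 ± 0.408, adjusted p = 0.000825). Phlpp1, a phosphatase of AKT, rose by 2.52 ± 0.371 and Pik3r1, the p85 regulatory subunit, by 1.42 ± 0.258.

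Cytotoxic granule genes were mostly higher in tumor, with 11 of 17 raised and a median of 2.62. Of the 17, 2 were listed at 0 in every TDLN library and could not fall. Gzmb, the main cytotoxic granzyme, had 20828, 54524 and 27237 normalized counts in tumor and 2317, 9852 and 3790 in TDLN. Library 2 was highest in each tissue, and all tumor values were above all TDLN values (2.82 ± 0.576, adjusted p = 0.00336). Gzmc and Gzmf, granzymes of strongly activated cells, were scarce in TDLN, with Gzmc at 1258, 7133 and 2622 against 10.8, 6.57 and 15.4 (6.35 ± 0.732, adjusted p = 6.95e-05). Perforin, Prf1, which forms the pore, rose by 3.13 ± 0.466 (adjusted p = 0.000451). Serpinb9, the inhibitor that shields killer cells from granzyme B, rose from 1272, 1275 and 877 to 14179, 15071 and 10067 (3.49 ± 0.23, adjusted p = 8.16e-07). Gzma, a granzyme of cytotoxic cells, had 2931, 9482 and 5806 in tumor and 3685, 9670 and 7813 in TDLN, which overlap (-0.26 ± 0.687, adjusted p = 0.802). Gzmm fell from 393, 572 and 442 to 105, 187 and 137 (-1.57 ± 0.492, adjusted p = 0.0302), a call that was lost without any 1 of tumor libraries 1 and 3 and the 3 TDLN libraries.

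Secreted cytokines and death ligands rose for 10 of 17 members, with a median of 2.17. Ifng, interferon gamma, had 46084, 28342 and 20832 normalized counts in tumor and 387, 382 and 358 in TDLN (6.23 ± 0.702, adjusted p = 5.68e-05). The TDLN libraries agreed closely on Ifng, while the tumor libraries spread over a range from library 1, the highest, to library 3. Fasl, which kills through Fas, rose by 2.88 ± 0.355 and Tnf by 1.86 ± 0.418. Tnfsf11, the ligand RANKL, rose by 3.63 ± 0.649 and Xcl1, which attracts cross-presenting dendritic cells, by 4.79 ± 0.829. Il2, the T-cell growth factor, had 5703, 1142 and 376 in tumor and 300, 243 and 610 in TDLN and did not pass (adjusted p = 0.171). Il16 was the member that fell (-2.15 ± 0.328, adjusted p = 0.000546).

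All 10 chemokine ligands tested rose, with a median of 5.48 (5.76 with those at 0 in TDLN at the floor). Of the 10, 2 were listed at 0 in every TDLN library and could not fall. Ccl4, an inflammatory chemokine, was among the most abundant transcripts of the tumor libraries, at 180393, 147712 and 113334 normalized counts against 2257, 2218 and 1577 in TDLN (6.16 ± 0.637, adjusted p = 2.85e-05). Ccl3, its close relative, had 78548, 37396 and 30276 in tumor and 901, 1061 and 209 in TDLN (6.18 ± 0.744, adjusted p = 9.65e-05). Ccl5 rose by 3.33 ± 0.696 and Ccl1 by 5.66 ± 1.23. Other members of the list are known myeloid products: Cxcl2 and Cxcl9 were listed at 0 in all TDLN libraries and reached 810, 3072 and 1288 and 1186, 1392 and 524 in tumor. Ccl2 and Ccl7, monocyte attractants outside the list, were likewise listed at 0 in TDLN and had 5664, 8325 and 8587 and 5005, 8428 and 3392 in tumor. Lyz2 and the other macrophage markers were higher in the same libraries. Library 2 was highest for Lyz2, Cxcl2, Cxcl9 and Ccl7. Ccl2 was highest in library 3, where macrophage markers took their smallest tumor share (0.137%). Whether macrophages account for these chemokines was not tested.

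Inhibitory receptors and ectoenzymes rose for 12 of 19 members, with a median of 1.66. Ctla4, which competes with Cd28 for its ligands, had 10694, 7951 and 5221 normalized counts in tumor and 82.8, 76.7 and 131 in TDLN. The groups were far apart, and the log2 difference was 6.0 ± 0.552 (adjusted p = 1.15e-05). Pdcd1, the receptor PD-1, was already present in TDLN, at 646, 776 and 394, and had 4016, 4419 and 3372 in tumor (2.69 ± 0.302, adjusted p = 5.49e-05). Tigit rose by 3.61 ± 0.587, Havcr2 (TIM-3) by 1.43 ± 0.239 and Lag3 by 1.69 ± 0.501, of which the Lag3 call was lost without TDLN library 3 or tumor library 1. Entpd1 (CD39) and Nt5e (CD73), which together turn ATP into adenosine, rose by 3.77 ± 0.566 and 2.21 ± 0.528. Lilrb4a, which macrophages also express, had 1155, 3014 and 1506 in tumor and 2.80, 8.21 and 6.72 in TDLN (5.84 ± 0.442). Cd200r1, an inhibitory receptor for CD200, was the member that fell (-1.73 ± 0.377, adjusted p = 0.00482). Cd160, a further inhibitory receptor, had 7039, 2949 and 5039 in tumor and 4557, 3790 and 4476 in TDLN, which overlap.

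Among costimulatory receptors 33.3% rose and 13.3% fell, against 18.1% and 12.6% of all genes tested, so the falls were near the background. Of 15 tested, 5 rose, and 4 of these belong to the TNF receptor superfamily: Tnfrsf9 (4-1BB, 3.93 ± 0.485), Tnfrsf4 (OX40, 2.31 ± 0.451), Tnfrsf18 (GITR, 2.16 ± 0.375) and Tnfrsf1b (2.14 ± 0.273). The fifth was Icos (1.36 ± 0.219). Tnfrsf9 had 10098, 6953 and 7614 normalized counts in tumor and 706, 949 and 187 in TDLN. Cd2 and Slamf7 fell by 0.74 and 0.54, with adjusted p of 0.038 and 0.0272, and at least 1 of these 2 calls was lost whichever library was left out. Cd28 had 11223, 7262 and 6477 in tumor and 5302, 6040 and 5681 in TDLN and did not pass (adjusted p = 0.106).

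Killer lectin-like receptors rose for 10 of 14 members of the list of such receptors and their adaptors (median 2.34). Of the 14, 1 was listed at 0 in every TDLN library and could not fall. Klrd1, the CD94 chain, had 62929, 44044 and 29237 normalized counts in tumor and 2010, 3228 and 3848 in TDLN (3.88 ± 0.362, adjusted p = 1.28e-05). Klrc1, which encodes its inhibitory partner NKG2A, rose by 2.22 ± 0.379 and Klre1 by 4.92 ± 0.458. Fcer1g and Tyrobp, signaling adaptors that are also myeloid genes, rose by 6.54 ± 0.341 and 5.80 ± 0.33, in libraries where macrophage markers took 0.137% to 0.324% of the total; their part in this was not tested. Cd7, a surface protein of T and NK cells, went the other way, from 5649, 4393 and 8317 in TDLN to 382, 365 and 395 in tumor (-3.87 ± 0.666, adjusted p = 0.00117). The tumor values of Cd7 were almost equal in the 3 libraries.

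Of 23 cytokine receptor chains 10 rose, with a median of 0.91. Il12rb2, the chain that makes a T cell responsive to interleukin 12, had 3182, 4941 and 2098 normalized counts in tumor and 18.1, 19.5 and 1.00 in TDLN (6.46 ± 0.332, adjusted p = 1.27e-07). Il1rl1, the receptor for interleukin 33, rose by 4.13 ± 0.357 and Ifngr1, a chain of the interferon gamma receptor, by 2.19 ± 0.357. Il2rg, the common gamma chain, and Il27ra fell by 0.83 and 1.16 (adjusted p = 0.0303 and 0.00425), and the call of Il2rg was lost without tumor library 1 or 2 or any 1 TDLN library. Il2ra, the high-affinity chain for interleukin 2, had 2958, 2427 and 1707 in tumor and 1335, 2958 and 390 in TDLN and did not pass (adjusted p = 0.278). Of 16 SOCS, PIM and STAT5 response genes 8 rose (median 1.16), among them Socs3 (3.48 ± 0.32), a brake on STAT3, and Stat3 itself (2.67 ± 0.282).

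Among 18 chemokine and lipid trafficking receptors 4 rose and 4 fell (median -0.15), and the lower count was 2 without TDLN library 2 or without both replicate 3 libraries. Cxcr3, the receptor for Cxcl9 and Cxcl10, had 448, 632 and 295 normalized counts in tumor and 4032, 3843 and 4742 in TDLN (-3.19 ± 0.369, adjusted p = 7.11e-05). Gpr15 and Ccr4, receptors for homing to gut and skin, fell by 3.22 ± 0.915 and 2.69 ± 0.437, and the Gpr15 call was lost without TDLN library 1 or 2 or tumor library 3. Cx3cr1, the fractalkine receptor that macrophages also carry, rose by 2.86 ± 0.327 (adjusted p = 6.48e-05) and P2ry10 by 2.10 ± 0.249. Cxcr6, a receptor of tissue-resident cells, was high in both, with 15578, 11096 and 13214 in tumor and 6549, 7562 and 11961 in TDLN (0.65 ± 0.216, adjusted p = 0.0388), a call lost without TDLN library 1 or 2 or tumor library 1 or 3. S1pr1, which guides cells out of the node, had 369, 434 and 873 in tumor and 1677, 1953 and 3131 in TDLN. Its groups did not overlap, but it did not pass (-2.01 ± 0.727, adjusted p = 0.0526); it passed without tumor library 3 and under other settings given in the closing section. Ccr7, the receptor that guides cells into the node, had 4096, 599 and 2128 in tumor and 1751, 1047 and 2849 in TDLN, a wide overlap (0.01 ± 1.09, adjusted p = 0.997).

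Integrins and adhesion molecules showed opposite changes in a single list: of 17 tested, 7 rose and 6 fell. The count of 7 was 4 without TDLN library 1 or 2 or tumor library 1 or 2. Itgae, the CD103 chain that binds E-cadherin, had 74.8, 45.7 and 18 normalized counts in tumor and 634, 406 and 1022 in TDLN (-3.31 ± 0.534, adjusted p = 0.000775). Its partner chain Itgb7 fell by 2.55 ± 0.322 (adjusted p = 0.000142). Itgav, an alpha chain for matrix ligands, had 6348, 5584 and 5983 in tumor and 698, 937 and 793 in TDLN (2.85 ± 0.264, adjusted p = 1.18e-05). Cd44, the hyaluronan receptor of activated T cells, rose by 2.09 ± 0.237 (adjusted p = 6.09e-05). Fut7, the fucosyltransferase that makes selectin ligands, fell from 1037, 936 and 1080 in TDLN to 126, 71.1 and 62.4 in tumor (-3.27 ± 0.307, adjusted p = 1.34e-05).

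Most genes linked to tissue residency were higher in tumor (72.2%, against 18.1% of all genes tested). Of 18 tested 13 rose, with a median of 1.71, including Cd69, an early activation antigen that holds cells in tissue, with 11234, 7890 and 9363 normalized counts in tumor and 1463, 1276 and 2062 in TDLN (2.57 ± 0.449, adjusted p = 0.00129). Rbpj, the effector of Notch signaling, rose by 2.88 ± 0.236 (adjusted p = 4.74e-06). The members that fell were Itgae, above, and Runx3, a factor that programs CD8 and resident cells (-0.77 ± 0.245, adjusted p = 0.0316), and the call of Runx3 was lost without tumor library 1 or 3 or TDLN library 1 or 2. Rgs1, Rgs2, Rgs16, Xcl1, Skil and Smad7 were counted among the 13 and sit in other lists too.

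**Figure D4:**
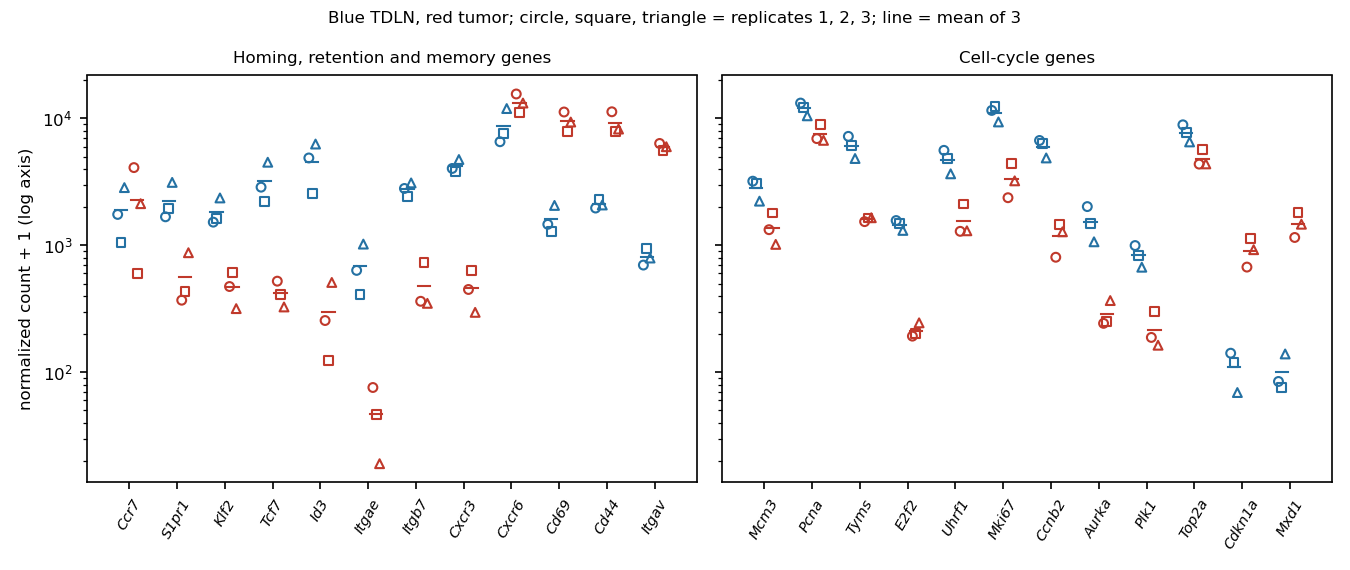
Normalized count plus 1 (y axis, log axis) of homing, retention and memory genes (left) and cell-cycle genes (right) in each KO library; TDLN is blue, tumor is red, and lines are means of 3 libraries. Tcf7, Id3, Itgae, Itgb7 and Cxcr3 lie lower in tumor with no overlap, Cd69, Cd44 and Itgav lie higher, and Ccr7 overlaps; on the right, all but Cdkn1a and Mxd1 have lower means in tumor.

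Among stem-like and memory factors, 4 of 18 fell and 5 rose, and the median was 0.39. Tcf7, which encodes TCF1, had 521, 409 and 326 normalized counts in tumor and 2872, 2205 and 4515 in TDLN (-2.82 ± 0.642, adjusted p = 0.00619). Id3, a factor of memory cells, had 255, 123 and 509 in tumor and 4879, 2552 and 6281 in TDLN (-3.94 ± 0.485, adjusted p = 0.000115). Klf2, which keeps S1pr1 expressed, fell by 1.94 ± 0.297 (adjusted p = 0.000549), and Ikzf1 by 0.57 ± 0.201 (adjusted p = 0.0479), a call lost without any 1 KO library other than tumor library 1. The count of 4 was 2 without both replicate 3 libraries, where Tcf7 and Ikzf1 were lost. Lef1, a relative of Tcf7, had 1622, 2542 and 1304 in tumor and 2319, 3088 and 5976 in TDLN and did not pass (adjusted p = 0.0779). Klf4, which restrains proliferation and is also a myeloid factor, rose from 13.2, 30.7 and 26.9 to 3817, 2445 and 1956 (5.80 ± 0.388, adjusted p = 9.46e-07), and Klf6 rose by 2.71 ± 0.222. Bach2, which restrains effector differentiation, had 1426, 772 and 594 in tumor and 120, 92.0 and 372 in TDLN and did not pass (adjusted p = 0.0529); it passed without TDLN library 3 and under other settings given in the closing section.

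Effector and exhaustion factors rose for 10 of 20 members, and for 6 without TDLN library 1 or tumor library 1. Zeb2, which drives terminal effector cells and is expressed by macrophages as well, had 3498, 3043 and 2277 normalized counts in tumor and 62.7, 72.3 and 70.1 in TDLN (4.97 ± 0.344, adjusted p = 1.24e-06). Irf8, another factor shared with myeloid cells, rose by 4.51 ± 0.329 (adjusted p = 1.95e-06). Bhlhe40, a factor of cytokine production and mitochondrial fitness in T cells, rose by 4.16 ± 0.307 (adjusted p = 2.2e-06). Hif1a, the oxygen-regulated factor, had 19679, 20004 and 11040 in tumor and 3376, 4111 and 2622 in TDLN (2.29 ± 0.306, adjusted p = 0.00021). Tox, a factor of exhausted cells, had 1551, 586 and 836 in tumor and 409, 657 and 562 in TDLN, with overlap (0.75 ± 0.498, adjusted p = 0.271). Tbx21 (T-bet) rose by 0.92 ± 0.275 (adjusted p = 0.024), a call lost without any 1 KO library other than tumor library 3, and Id2 fell by 0.79 ± 0.202 (adjusted p = 0.0117). Id2, Nfatc2 and Runx3 were the 3 members that fell; the count was 1 without TDLN library 1, tumor library 1 or tumor library 3, and 0 without TDLN library 2. Among the 20 FOXO factors and FOXO target genes 4 fell, among them Tcf7, Klf2 and Trib2, and 1 rose (Bcl6), with a median of 0.07 that was -0.01 with columns at a common total; the 1 was 2 without TDLN library 3, and the 4 were 2 without both replicate 3 libraries.

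Cell-cycle genes were lower in tumor. Of 32 DNA replication and S-phase genes 21 fell and none rose (median -0.93), and of 31 genes of G2 and mitosis 17 fell and none rose (median -1.26). The 21 became 10 without TDLN library 1 and 12 without tumor library 1, and the 17 became 9, 10, 10 and 11 without TDLN library 1, TDLN library 2, tumor library 1 and tumor library 2. The transcripts remained abundant in tumor all the same. Mki67, the proliferation antigen Ki-67, had 2372, 4400 and 3220 normalized counts in tumor and 11561, 12339 and 9379 in TDLN (-1.76 ± 0.399, adjusted p = 0.00603). E2f2, a factor of the S-phase program, had 192, 201 and 244 in tumor and 1567, 1496 and 1310 in TDLN (-2.65 ± 0.202, adjusted p = 2.6e-06). Tyms, thymidylate synthase, fell by 1.88 ± 0.235 (adjusted p = 0.000132) and Uhrf1, which maintains DNA methylation at replication, by 1.59 ± 0.292 (adjusted p = 0.00178). Ccnb2, a mitotic cyclin, had 805, 1448 and 1277 in tumor and 6701, 6331 and 4880 in TDLN (-2.35 ± 0.462, adjusted p = 0.00265). Aurka, a spindle kinase, had 242, 250 and 366 in tumor and 2019, 1485 and 1065 in TDLN (-2.29 ± 0.274, adjusted p = 9.03e-05). Top2a, the mitotic topoisomerase, had 4364, 5710 and 4381 in tumor and 8904, 7742 and 6527 in TDLN and did not pass (adjusted p = 0.226).

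Of 19 cyclins and cell-cycle inhibitors tested 7 rose and 3 fell, with a median of 0.78. Cdkn1a, the p21 inhibitor of cyclin-dependent kinases, had 673, 1122 and 923 normalized counts in tumor and 140, 118 and 68.2 in TDLN (2.81 ± 0.341, adjusted p = 0.000102). Mxd1, an antagonist of MYC, rose by 3.61 ± 0.407 (adjusted p = 5.68e-05) and Cdkn2b by 2.17 ± 0.334 (adjusted p = 0.00056). Cdkn2d, a further inhibitor, fell by 1.95 ± 0.292 (adjusted p = 0.000478), as did the G1 genes Ccnd3 (-1.20 ± 0.253) and Cdk4 (-0.85 ± 0.245); the Cdk4 call was lost without TDLN library 1 or 2 or tumor library 1. Ccnd1, cyclin D1, which resting T cells hardly express and fibroblasts do, had 401, 1036 and 1752 in tumor and 21.7, 25 and 25.3 in TDLN (4.25 ± 0.481, adjusted p = 6.01e-05). It was highest in tumor library 3, where matrix genes were also highest, and the part of fibroblasts in it was not tested.

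The promoters of the lower cell-cycle genes often held 1 short motif. CCAAT, the box bound by NF-Y, was on either strand in 28 of 36 windows of the 32 lower cell-cycle genes with a window (77.8%), in 38.4% of all windows and in 45% of windows of all lower genes. The E2F motif TTCCCGCC was in 13.9% of the 36 windows and in 4.07% of all windows. These shares describe letters near start sites and carry no test. The 5 upstream stretches below show the spacing of the CCAAT boxes in Ccnb2, Aurka, Ccnb1, Plk1 and Uhrf1, in capitals; in Uhrf1 the E2F motif is in capitals as well. All 5 genes fell, and the Ccnb1 call was lost without any 1 KO library other than tumor library 3. Ccnb2 has 3 boxes, starting 87, 54 and 21 bases before the start site, Aurka has 2 at 51 and 19, Ccnb1 has 2 at 99 and 67, Plk1 has 1 at 14, and Uhrf1 has E2F at 48 and CCAAT at 30 before the first of its 2 start sites. The window of its other start site, not shown, holds CCAAT at 150 and 107.
Ccnb2, chr9:70421555-70421671, minus strand: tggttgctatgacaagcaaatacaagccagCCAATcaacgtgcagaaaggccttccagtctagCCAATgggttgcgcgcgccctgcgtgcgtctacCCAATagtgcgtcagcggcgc
Aurka, chr2:172370571-172370670, minus strand: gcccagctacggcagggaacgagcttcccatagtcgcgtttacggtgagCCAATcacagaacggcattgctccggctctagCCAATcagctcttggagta
Ccnb1, chr13:100786516-100786615, minus strand: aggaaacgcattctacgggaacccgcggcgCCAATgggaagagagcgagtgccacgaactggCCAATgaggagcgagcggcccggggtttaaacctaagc
Plk1, chr7:122159335-122159434, plus strand: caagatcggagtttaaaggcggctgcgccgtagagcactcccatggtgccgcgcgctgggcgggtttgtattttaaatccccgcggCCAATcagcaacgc
Uhrf1, chr17:56303237-56303336, plus strand: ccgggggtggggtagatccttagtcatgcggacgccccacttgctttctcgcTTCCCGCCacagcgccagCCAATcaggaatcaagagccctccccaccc

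Of 27 glycolysis and hypoxia genes 13 rose and none fell (median 0.85). Slc16a3, the lactate exporter, had 252, 566 and 340 normalized counts in tumor and 20.9, 19.7 and 10.6 in TDLN (3.23 ± 0.305, adjusted p = 1.41e-05). Bnip3, a mitophagy receptor induced by hypoxia, rose by 3.00 ± 0.529, P4ha1, a collagen prolyl hydroxylase, by 2.28 ± 0.288 and the glucose carrier Slc2a1 by 1.65 ± 0.24. Ldha, lactate dehydrogenase, had 10987, 13146 and 13658 in tumor and 18379, 14884 and 12745 in TDLN, and the ranges overlapped (adjusted p = 0.403). Nuclear genes of the respiratory chain had a median of -0.16. Of 27, 3 were higher (11.1%) and 5 lower (18.5%), against 18.1% and 12.6% of all genes tested. The 3 became 1, 1, 1, 0 and 1 without TDLN libraries 1, 2 and 3 and tumor libraries 1 and 2, and the 5 became 2 without TDLN library 1 or tumor library 2 and 9 without tumor library 3. Uqcrc1, a core subunit of complex III, fell from 3721, 2474 and 2832 in TDLN to 1003, 908 and 1532 in tumor (-1.39 ± 0.347, adjusted p = 0.0103). Of 13 mitochondrially encoded genes 6 rose (median 0.44), and 2, 3 and 3 did without TDLN library 1, TDLN library 2 and tumor library 1; mt-Atp6, a subunit of ATP synthase, rose by 0.74 ± 0.202 (adjusted p = 0.0161), a call lost without TDLN library 1 or tumor library 1. Of 25 sterol and fatty acid synthesis genes 6 rose, and 3 without TDLN library 3; the median was 0.03, and -0.05 with columns at a common total. Insig1, which takes part in sterol sensing, was 1 of the 6 (2.28 ± 0.289).

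Of 22 ATF4 and amino acid response genes 12 rose (median 1.07). Atf4, the factor itself, had 4185, 6034 and 4745 normalized counts in tumor and 1244, 1601 and 1415 in TDLN (1.79 ± 0.18, adjusted p = 2.36e-05). Ppp1r15a, which restores translation after stress, rose by 3.62 ± 0.573 (adjusted p = 0.000696). Phgdh, of serine synthesis, fell by 1.30 ± 0.362 (adjusted p = 0.0177), a call lost without TDLN library 1 or tumor library 1. Of 15 heat shock chaperones 7 rose and none fell (median 0.63). Hspa1b, an inducible HSP70, had 968, 3858 and 2267 in tumor and 74.3, 23 and 8.64 in TDLN (5.25 ± 0.503, adjusted p = 1.55e-05). Its paralog Hspa1a is nearly identical in sequence, so reads could be split between them, and it too rose (5.07 ± 0.487). Hsp90aa1, an HSP90 chaperone gene, had 13437, 18677 and 15201 in tumor and 20006, 18856 and 12931 in TDLN, and the values overlapped. Of 12 BCL2 family genes 6 rose and none fell (median 1.03). Bcl2l11 (BIM), which promotes death, rose from 150, 218 and 329 to 3244, 3733 and 2562 (3.68 ± 0.388, adjusted p = 3.37e-05), while the survival gene Mcl1 rose by 1.29 ± 0.239. The 3 Bcl2a1 copies counted among the 6 are paralogs that can share reads.

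Of 29 interferon-stimulated genes 8 rose and none fell (median 0.87), and the 8 became 3, 4, 4, 4 and 3 without TDLN libraries 1, 2 and 3 and tumor libraries 1 and 2. Irf1, a target of interferon gamma, had 2581, 4114 and 2424 normalized counts in tumor and 640, 778 and 780 in TDLN (1.98 ± 0.3, adjusted p = 0.000505). Gbp2, a guanylate-binding protein, rose by 1.77 ± 0.538 (adjusted p = 0.0266), a call lost without TDLN library 1 or 2 or tumor library 2. Ifit1, a gene of the type I response, had 1504, 562 and 1513 in tumor and 900, 485 and 593 in TDLN, and its values overlapped (adjusted p = 0.5). Of 12 class I antigen presentation genes 2 rose (16.7%, against 18.1% of all genes tested). They were H2-K1 (1.16 ± 0.271) and B2m (0.91 ± 0.158), and 4 rose without tumor library 3. The immunoproteasome subunits Psmb8 and Psmb9 fell by 0.71 and 0.61 (adjusted p = 0.0395 and 0.0475); neither call was left without tumor library 1 or 2 or any 1 TDLN library, and 1 was left without tumor library 3.

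Of 16 TGF-beta and retinoic acid response genes 6 rose (median 0.25), among them the feedback genes Skil and Smad7. Skil had 13301, 11057 and 9107 normalized counts in tumor and 1393, 2012 and 2379 in TDLN (2.53 ± 0.229, adjusted p = 1.04e-05), and Smad7 rose by 2.42 ± 0.303. Itgae, which TGF-beta is known to induce, was the member that fell, and 3 fell without tumor library 3. Of 10 glucocorticoid response genes 7 rose (median 1.64). Nr3c1, the glucocorticoid receptor, had 3113, 3540 and 3487 in tumor and 1168, 1102 and 1114 in TDLN (1.56 ± 0.16, adjusted p = 2.68e-05), with both trios tightly grouped. Tsc22d3 (GILZ) rose by 1.90 ± 0.358 and Klf9 by 3.86 ± 0.337. Fkbp5, another target of that receptor, fell by 1.18 ± 0.312 (adjusted p = 0.0135), a call lost without TDLN library 1 or 2.

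**Figure D5:**
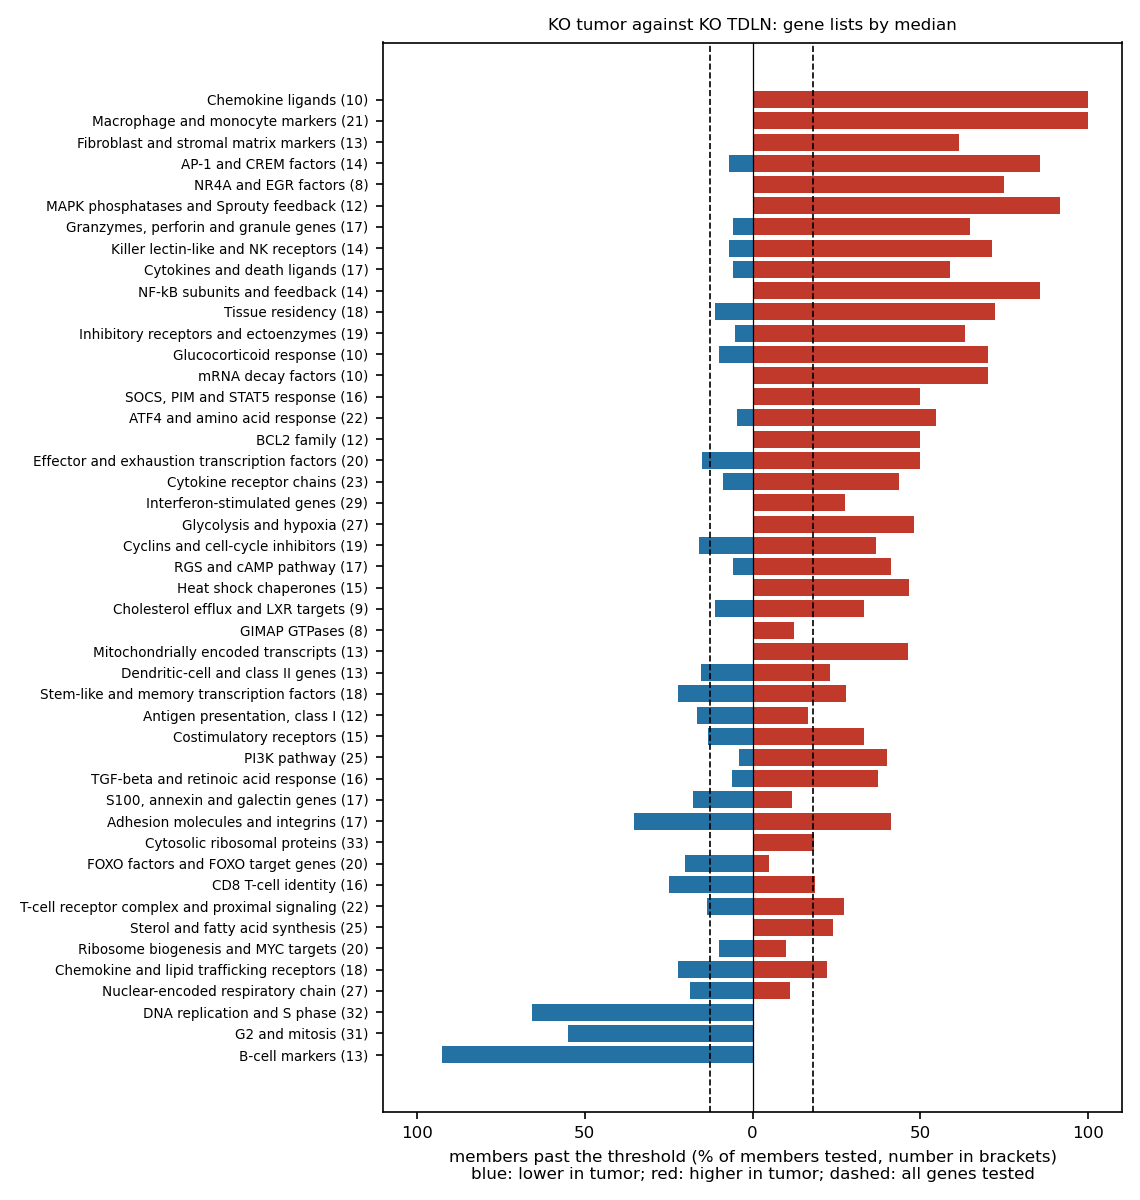
Share of tested members past the threshold (x axis, percent) for the 46 lists with at least 8 members tested, ordered by median log2 difference; red bars to the right are members higher in tumor, blue bars to the left are members lower, and dashed lines mark 18.1% and 12.6% of all genes. Chemokine ligands and macrophage markers reach 100% higher, while B-cell markers and the 2 cell-cycle lists extend furthest to the left. In the first 2 lists, 2 of 10 and 7 of 21 members were at 0 in every TDLN library and could not fall.

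The remaining lists held few calls or few genes, beside 18.1% higher and 12.6% lower among all genes tested. Of 8 GIMAP GTPases, small GTPases of lymphocyte survival, 1 rose (Gimap5), and none did without TDLN library 1 or 2 or tumor library 1 or 2. Of 17 S100, annexin and galectin genes 2 rose (11.8%) and 3 fell (17.6%), with a median of 0.22. The 2 became 1 without TDLN library 1 or 2 or tumor library 2 or 3. The 3 became 1 without tumor library 1 or 3. Of 33 cytosolic ribosomal protein genes 6 rose (18.2%, the background share, with a median of 0.09). The 6 became 1, 2, 1 and 2 without TDLN library 1, TDLN library 2, tumor library 1 and tumor library 2. Many of the 33 have processed pseudogenes that can share reads. Of 20 ribosome biogenesis and MYC target genes 2 rose and 2 fell (median -0.05), and no more than 1 of the 2 rises was left without TDLN library 1 or 3 or any 1 tumor library. The falls were 0 without TDLN library 1 or 2 or tumor library 1, and 1 without tumor library 2. Of 9 cholesterol efflux genes 3 rose, among them Abca1 and the macrophage product Apoe, and Abcg1 fell. Of 13 dendritic-cell and class II genes 3 rose and 2 fell, and of 7 NK-cell markers 4 rose, of which Fcer1g and Tyrobp are also myeloid. Of 8 neutrophil markers with values, 5 were listed at 0 in every TDLN library and only 3 were abundant enough to be tested, so their calls were not counted. Of 6 CD4 and regulatory T-cell markers 1 rose (Ikzf2), which was lost without TDLN library 1 or tumor library 1, and of 2 carcinoma markers 1 rose (Lgals4).

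Some of the remaining differences concerned very abundant genes. AW112010, an interferon gamma-induced transcript of T cells, had 188892, 178209 and 110048 normalized counts in tumor and 37137, 49414 and 50379 in TDLN (1.77 ± 0.364, adjusted p = 0.00344). Nkg7, a granule membrane protein, rose by 0.57 ± 0.162 (adjusted p = 0.0194), a call lost without TDLN library 1 or 2 or tumor library 1 or 3, and the antiproliferative gene Btg1 by 2.04 ± 0.374 (adjusted p = 0.00172). Arhgdib, a GDP-dissociation inhibitor of small GTPases in blood cells, fell from 107245, 88584 and 113351 in TDLN to 36333, 39544 and 43345 in tumor (-1.37 ± 0.189, adjusted p = 0.000268). Ly6e fell by 1.55 ± 0.245 and Lbr, the lamin B receptor, by 1.56 ± 0.308. Among the largest falls of genes outside the lists, Rasgrp2, an activator of Rap1 for integrins, had 141, 295 and 196 in tumor and 2278, 2523 and 2366 in TDLN (-3.41 ± 0.276, adjusted p = 4.34e-06). Cmah, an enzyme of sialic acid synthesis, fell by 3.23 ± 0.626 (adjusted p = 0.00243) and Wnt10a, a Wnt ligand, by 3.92 ± 0.397 (adjusted p = 2.45e-05). Ly6d, a B-lineage surface antigen, had 1.82, 0 and 0 in tumor and 342, 394 and 909 in TDLN, beside the fall of the B-cell markers.

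Whether the tissue difference of the KO departs from that of the WT was asked with the interaction of genotype and tissue. No gene passed in limma (0 of 16065, 0%), the smallest adjusted p was 1, and 465 genes (2.89%) had an unadjusted p under 0.05. In the WT alone 4312 genes passed (26.8%), so nothing among the tissue differences above was shown to be particular to the KO. For Pik3ip1 the difference was -3.19 in KO and -2.33 in WT (interaction -0.86 ± 0.491, unadjusted p = 0.105). The smallest p of a gene more positive in KO belonged to Alox8, a lipoxygenase. Its log2 difference was 5.44 in KO and 2.98 in WT (interaction 2.46, unadjusted p = 0.000541). Klra5, a Ly49 receptor, was listed at 0 in the KO TDLN libraries, had 389, 816 and 370 in KO tumor and 102, 163 and 91.1 in WT tumor (unadjusted p = 0.00136). List medians were 2.64 in KO and 2.51 in WT for MAPK phosphatases, 1.66 and 1.98 for inhibitory receptors, -0.93 and -1.33 for S phase, and -1.26 and -1.96 for G2 and mitosis. They were 0.03 and -0.45 for sterol synthesis and 0.85 and 0.26 for glycolysis and hypoxia, and no member of any list passed the interaction test.

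Replicates spread more in tumor than in node. The median SD over genes was 0.33 on the log2 scale in the tumor libraries and 0.22 in the TDLN libraries. In tumor the 10 genes of widest spread included Xist, hemoglobin and stromal genes: Igfbp3, a matrix-associated growth factor binding protein, had 435, 60.9 and 7842 normalized counts, and Rgs5, a pericyte marker, had 18.2, 29.2 and 2056, both highest in library 3. In TDLN they included Y-linked genes, which library 3 lacked, and segments of the receptor beta chain, where Trbv2 had 32.5, 1973 and 237. Dqx1 was also among the 10 of widest spread there, with 1274, 1090 and 43.2 in TDLN and 180, 234 and 105 in tumor. Among the T-cell genes above, Ccl1 and Ccr7 had the errors over 1, at 1.23 and 1.09 on the log2 scale.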

How the data were processed

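RNA was measured by stranded polyA sequencing, per the labels' protocols, in 12 libraries of sorted CD8 T cells, 4 groups of 3. The authors deposited 1 table of normalized counts exported from Partek, per the file headers; a value is an estimated read count divided by a size factor of its library, so the deposited unit is a signal, not a raw count. Between 87.0% and 89.6% of values under 50 reads came out whole within 0.01 reads, too few for a count model. GRCm38 and GRCm39 are named in the submitters' processing notes; neither the step each served nor the aligner is given there or in the labels. The estimated depth of the KO libraries was 18265000 to 30865000 reads in genes, and floors at 3 reads per library cover counting error only.

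Of 26962 genes, the 16065 that averaged 1 CPM (24.9 normalized counts) or more over the 12 libraries were tested. limma 3.58.1 in R 4.3.3, with an intensity trend, was fitted to log2(normalized count + 24.9) with a mean per group; differences of low genes are understated on this scale. Tests were two-sided, with p-values adjusted by Benjamini-Hochberg over all genes tested and a threshold of 0.05, and ± is the SE. All fold changes, log2 values and counts of calls were computed here. Genes were described in 52 lists (771 of 827 symbols tested); named genes were the largest changes, the most abundant changed genes, up to 5 members per list and direction, the first 3 members of each list, and the genes of smallest interaction p and widest spread. A further 23 of the 204 genes in the text, among them Egr2, Bach2, Tox, Ccr7, S1pr1, Lag3, Cd160 and Ccnb1, were named after their values were seen. A few list members are counted but not reported here by name. The lists and named genes were chosen with earlier results of these data known. The fit was tested on simulated data. Motifs were searched in RefSeq promoters (GRCm38.p6). Summaries used pandas 2.3.3 and numpy 2.4.6 under Python 3.11.15, with figures drawn by matplotlib 3.10.9. Other scalings, pseudocounts, filters, variance models, weights, a replicate block and leaving out each library were tried.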

Additional observations from a re-analysis of the deposited data

Results flagged for a closer look

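Gm43300, a predicted gene, moved in opposite directions in the 2 genotypes. In the KO it had 0, 20.3 and 0 normalized counts in tumor and 35.6, 36.1 and 85.5 in TDLN, so every tumor library lay below every TDLN library, at -1.29 on the log2 scale. In the WT it had 103, 87.5 and 43.4 in tumor and 36.4, 33.3 and 28 in TDLN, so every tumor library lay above every TDLN library, at 0.79. The tissue difference of the KO minus that of the WT was -2.08, with an unadjusted interaction p of 0.00156 and an adjusted p of 1 in limma, so the difference between genotypes did not pass.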

How the results depend on the processing

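The total of 4919 genes was 2523 at an adjusted p of 0.01 and 3056 to 4828 with 1 KO library left out. It was larger under other settings. With only the KO libraries in the fit it was 5722 (3278 higher, 2444 lower). With quantile normalization it was 5266, and with array weights 7089, of which 3913 were higher. The 2902 higher genes were 1878 with a filter of 5 CPM, which tests fewer genes, 1727 at an adjusted p of 0.01, and 2026 to 2715 with 1 library left out. The 2017 lower genes were 3176 with array weights, 796 at an adjusted p of 0.01, and 1030 to 2113 with 1 library left out. The interaction count of 0 was 1 with no filter; the cause of these moves beyond fewer genes or libraries was not tested. Without both replicate 3 KO libraries, a setting chosen after the data were seen, 3797 genes passed (2233 higher, 1564 lower), and 3464 of them were among the 4919. Calls shared with the 4919 numbered 4661 with a common column total, 4386 with quantile normalization, 4894 with array weights and 3029 to 4205 with 1 library left out.

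Replicate numbers are shared by tumor and TDLN, but nothing in the labels makes them a mouse or a batch. Same-numbered KO libraries had correlations of deviations of -0.019, 0.038 and -0.001, and not every library correlated best with its own number. Among the KO libraries, Xist was high only in library 3 of each tissue, though tumor library 3 also held Y-linked transcripts. The WT libraries had the same pattern. Their Xist was at 3040 in tumor library 3, 3552 in TDLN library 3 and 0 in the others. Y-linked transcripts summed to 1467 in WT tumor library 3 and 0 in WT TDLN library 3. In the KO, Trbv5 was high only in library 1 of each tissue, at 24.7% of the Trbv signal in tumor and 16.7% in TDLN. With a replicate block 4647 genes passed, 2751 higher and 1896 lower, 4315 of them shared, and the interaction count was 0.

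The median of 8 of the 52 lists changed sign under at least 1 setting, all from values between -0.154 and 0.424. The T-cell receptor (-0.018), FOXO (-0.006) and sterol synthesis (-0.046) medians did with a common column total. The T-cell receptor median was -0.128 without TDLN library 2 and the FOXO median -0.199 without tumor library 1. The sterol median was -0.282 without both replicate 3 libraries. The trafficking receptor median was 0.396 with the 5 CPM filter. It also changed sign with 1 library left out, as did the dendritic-cell and ribosome biogenesis medians. S100, annexin and galectin genes were at -0.033 without both replicate 3 libraries and 0.070 to 0.216 with 1 library left out, and CD8 identity at 0.141 without both and -0.172 to 0.138 with 1 left out, the lowest without TDLN library 2, and at -0.018 with a common column total. Genes that had not passed also changed sign: Ccr7 was at -0.074 with a common column total, -0.016 with quantile normalization and -0.60 to 0.76 with 1 library left out, Gzma at -0.67 to 0.18, Cd160 at -0.14 to 0.48 and Hsp90aa1 at -0.31 to 0.001. Of 204 genes named, 173 stayed on their side of the threshold at an adjusted p of 0.01, 190 with no filter, 193 with no intensity trend and 195 with the replicate block, which lost Ikzf1, Ikzf2, Nfatc2, Gbp2, Egr3 and Phgdh and gained Egr2, S1pr1 and Trbv2. Egr2, Bach2 and S1pr1, which had not passed, did so with only KO libraries in the fit, with the 5 CPM filter and with array weights, and S1pr1 also with a common column total and the pseudocount of 4 CPM; Nkg7, Lat, Trbc2 and Psmb9 did not pass with quantile normalization. The carcinoma list gave no value under the 5 CPM filter. A floor of 3 reads per library came to a group mean of 3.57 normalized counts in tumor and 2.83 in TDLN. It was a bound chosen for genes listed at 0, and some genes had nonzero values below it.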

Other observations

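The beta-chain variable segments of the T-cell receptor, which the lists above leave out, differed from library to library. In TDLN, Trbv12-2 took 58.3% of the summed Trbv signal in library 1 and 44.6% in library 2, while Trbv31 took 53.2% in library 3. In tumor, Trbv31 was the most abundant segment in all 3 libraries, at 29.8%, 29.4% and 43.0%. Trbv5 was high in library 1 of both tissues, at 24.7% in tumor and 16.7% in TDLN, and at most 0.674% in the other KO libraries. Trbv2 took 22.3% in TDLN library 2 and at most 2.60% elsewhere. Of the 23 segments in the table, 21, 21 and 22 were above 0 in TDLN libraries 1, 2 and 3, and 19, 12 and 15 in tumor. The summed signal was 8867 to 13105 normalized counts in TDLN and 4134 to 6299 in tumor. Segments are similar in sequence, and how reads were shared between them is not given in the sources used here.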
